A study of Mus musculus with 8 samples.

Results

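Transcripts of 8 genes tied to the identity of regulatory T (Treg) cells were examined in tumor-infiltrating CD4+ conventional T (Tconv) cells sorted by their surface CCR8. The genes were the 5 members of the Ikaros family, Ikzf1, Ikzf2, Ikzf3, Ikzf4 and Ikzf5, and 3 genes of the Treg cell surface, Nrp1, Lrrc32 and Cd81. They were taken by gene symbol, and all 8 were among the 11233 genes of the deposited table. The comparison addressed which of these transcripts were carried by CD4+ T cells lacking the Foxp3-EGFP reporter, and whether their levels differed between CCR8+ and CCR8- cells.

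The series held 8 bulk RNA-Seq libraries, 4 of CCR8+ and 4 of CCR8- cells, numbered 1 to 4 in each population. All came from Foxp3EGFP-DTR mice, in which EGFP and the human diphtheria toxin receptor are produced from the Foxp3 locus, so that diphtheria toxin (DTx) kills the cells that express Foxp3. The mice were 8 to 14 weeks old, carried subcutaneous B16-F10 melanoma and received 4 injections of 1 µg DTx between day 7 and day 13 after implantation, and tumors were taken at a time given as both day 16 and day 18 in the sources used here. Both populations were therefore DTx-treated, both were sorted as Foxp3EGFP-negative CD4+ Tconv cells, and neither untreated nor Treg cell libraries were analyzed here. The numbered libraries were biological replicates isolated on the same day, and the labels do not state that a number marks a mouse. The sort excludes cells by EGFP protein at a gate, and the Foxp3 transcript was not analyzed here.

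Ikaros family proteins are zinc finger transcription factors that bind DNA through a set of fingers near their amino terminus and pair with one another through a second set at the carboxy terminus. Ikaros (Ikzf1) and Aiolos (Ikzf3) are abundant in lymphocytes, Helios (Ikzf2) and Eos (Ikzf4) are the family members most associated with Treg cells, and Pegasus (Ikzf5) is a distant relative found in many tissues. Neuropilin-1 (Nrp1) is a semaphorin and VEGF co-receptor carried by many mouse Treg cells of thymic origin, GARP (Lrrc32) holds latent TGF-β on the surface of activated Treg cells, and CD81 is a tetraspanin that organizes other membrane proteins on lymphocytes and many other cells.

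The coding sequences of the DNA-binding fingers are shown because they set apart the close family members from Ikzf5 and bear on whether sequencing reads could be shared between them. Each is the 63-base stretch that encodes the second finger of Ikzf1, or the finger of another family member most like it, taken 5′ to 3′ from GENCODE M21 transcripts (build GRCm38). Capitals mark the codons of the zinc-binding cysteines and histidines.
Ikzf1, chr11:11754024-11754086, plus strand, exon 6: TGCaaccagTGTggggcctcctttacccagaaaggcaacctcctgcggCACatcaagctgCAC
Ikzf2, chr1:69570581-69570643, minus strand, exon 5: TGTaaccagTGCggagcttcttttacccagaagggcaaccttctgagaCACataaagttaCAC
Ikzf3, chr11:98488940-98489002, minus strand, exon 5: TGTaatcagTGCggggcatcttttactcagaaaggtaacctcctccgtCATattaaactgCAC
Ikzf4, chr10:128640229-128640291, minus strand, exon 5: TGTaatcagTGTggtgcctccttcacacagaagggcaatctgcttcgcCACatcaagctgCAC
Ikzf5, chr7:131393759-131393821, minus strand, exon 3: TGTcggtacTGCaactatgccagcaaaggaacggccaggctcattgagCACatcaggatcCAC

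Of the 63 bases, Ikzf2 and Ikzf3 each shared 51 with Ikzf1 and Ikzf4 shared 53 (84.1%), whereas Ikzf5 shared 29 (46.0%). Over the whole transcripts, no stretch of 50 bases was common to any 2 of the 5 genes, and the longest run shared by any 2 was 32 bases, between Ikzf2 and Ikzf4. In GRCm38, Ikzf1 lies at chr11:11685003-11772926, Ikzf2 at chr1:69531214-69687245, Ikzf3 at chr11:98464902-98546031, Ikzf4 at chr10:128630843-128645991 and Ikzf5 at chr7:131388652-131410521. The surface genes lie at chr8:128358604-128503363 (Nrp1), chr7:98489283-98502181 (Lrrc32) and chr7:143052739-143067934 (Cd81). Whether counting used strand is not given in the sources used here. Ikzf5 shared 337 of its 4956 exonic bases, Ikzf2 144 of 9597, Cd81 104 of 1682 and Ikzf4 37 of 5830 with genes on the other strand, and Nrp1 shared 37 of 3597 with Mir1903 on its own strand.

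The libraries held between 12067780 and 17802628 reads in the table, and 3 reads in a library corresponded to between 2.21 and 3.42 normalized counts, below which a value was not told apart from 0. The libraries differed in the number of genes detected. CCR8- replicate 1 had 8569 detected genes, the fewest, and 242 genes were at 0 in it while having at least 100 normalized counts in each of the other 7 libraries. There were 44 such genes for CCR8+ replicate 1 and 36 for CCR8+ replicate 3, and 0 for the other 5 libraries. The summed level of 7 CD4 T cell markers was between 77686 and 114153 in all libraries. The summed level of the B cell markers was between 0 and 447, with Ms4a1 at 0 throughout and Cd79a and Cd79b present in some libraries, and that of the CD8 T cell markers Cd8a and Cd8b1 was between 478 and 3805. Ccr8 itself was between 1293 and 6214 in CCR8- and between 6970 and 42508 in CCR8+ libraries. Transcripts of 9 macrophage markers were present at a summed level of 33.5 to 81157 in CCR8- and 3184 to 26709 in CCR8+ libraries, and those of 7 melanoma markers at 105 to 17389 and 232 to 21841. In bulk samples, fewer cells with a transcript and less of it per cell cannot be told apart.

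Nrp1, Cd81 and Ikzf3 were present at substantial levels in the libraries of both Foxp3EGFP-negative populations. Ikzf1 per kilobase exceeded 72.5% of genes in CCR8- but only 56.3% in CCR8+ cells, whereas Ikzf2, Ikzf4 and Lrrc32 were at low levels in both. Between the populations, Cd81 was higher and Ikzf1 lower in every CCR8+ library than in every CCR8- library, and the other 6 genes overlapped. No member passed the adjusted threshold of 0.05 in limma on log2(normalized count + 1), and neither did any of the 11032 genes tested (0% called, smallest adjusted p = 0.788). At an unadjusted p under 0.05, limma gave 2 of the 8 members, beside 562 (5.09%) of all tested genes. Groups without overlap were found for 2 of the 8 members, beside 485 genes (4.40%) of all tested, of which 261 (2.37%) were higher and 224 (2.03%) were lower in CCR8+ cells. The members were chosen with earlier results of these data known, so these counts are descriptions only. With DESeq2 on the recovered reads, the kind of Wald test that the study used, Cd81 was the only member called. Beside it, 26 of the 10744 genes with a p-value were called (0.242%). Some of these genes, among them 4 of the 8 members, were given no adjusted p by that test and could not be called. The quasi-likelihood test of edgeR called 0 genes (0%), and at an unadjusted p under 0.05 it gave 2 members, Ikzf1 and Cd81, beside 487 genes (4.41%).

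**Figure D1:**
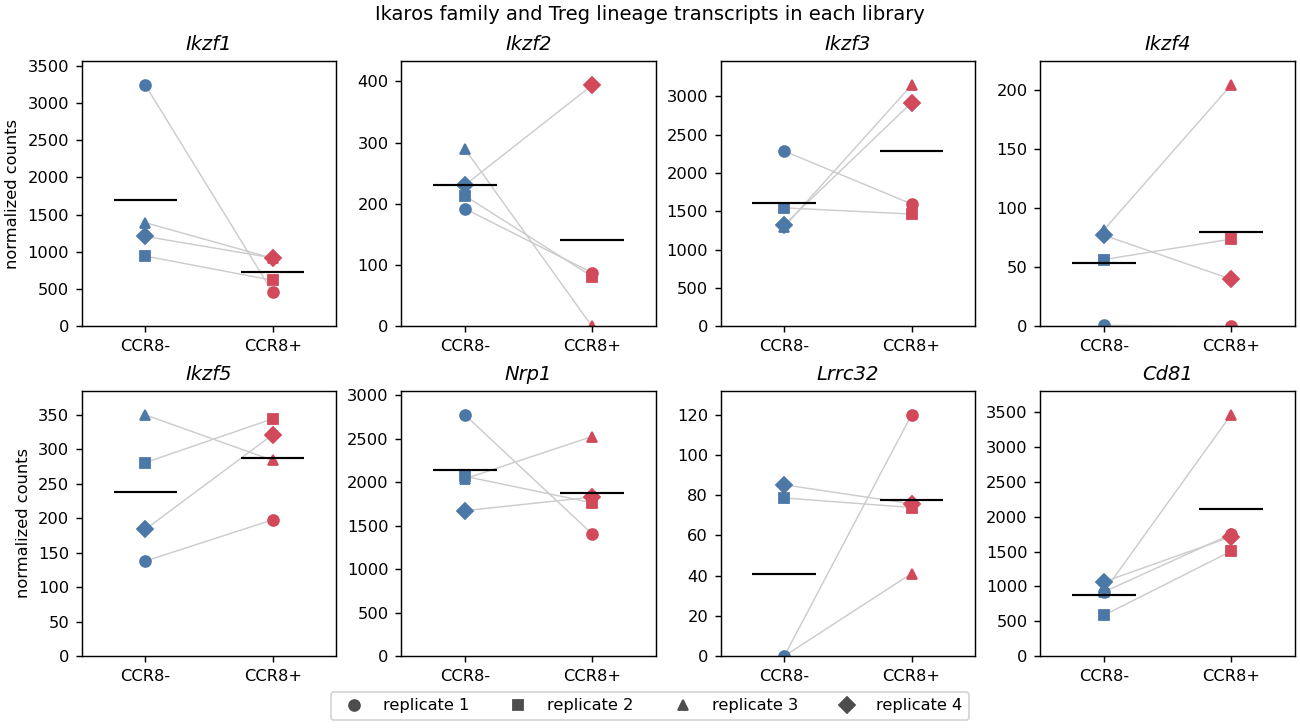
Normalized counts (linear axes from 0) of the 8 genes in each library. Blue symbols are CCR8- and red symbols CCR8+ libraries, the symbol shape is the replicate number, gray lines join equal numbers and black bars are means of 4. The red and blue symbols separate only for Ikzf1, where CCR8+ lies at or below 920, and for Cd81, where CCR8+ lies at or above 1504.

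Among the DNA-binding factors, Ikzf1 stood lower in CCR8+ cells. Ikaros is needed for lymphocyte development and recruits chromatin-remodeling complexes to its targets. Its normalized counts were 3238, 944, 1393 and 1208 in CCR8- replicates 1 to 4 and 460, 620, 915 and 920 in CCR8+ replicates 1 to 4. The groups met closely, since the lowest CCR8- library exceeded the highest CCR8+ library by a ratio of only 1.03, and 1 CCR8- library, replicate 1, lay far above the other 3. The means were 1696 ± 1044 and 729 ± 227 (SD, n = 4 each), a log2 fold change of -1.10 (SE 0.40, 95% interval -1.97 to -0.24) with an exact two-sided permutation p of 0.0286, the smallest that 4 against 4 libraries can give. The limma adjusted p was 0.838 and the DESeq2 adjusted p was 0.199. Without CCR8- replicate 1, the library with the fewest detected genes, the log2 fold change was -0.74. CCR8+ was lower in 4 of 4 same-numbered pairs, by 2.81, 0.61, 0.61 and 0.39 on the log2 scale.

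Ikzf3 showed no such separation. Aiolos, its product, pairs with Ikaros and is induced as lymphocytes are activated. Normalized counts of Ikzf3 were 2284, 1544, 1300 and 1325 in CCR8- and 1596, 1464, 3143 and 2915 in CCR8+ libraries. CCR8+ replicates 3 and 4 were above all CCR8- libraries, while CCR8+ replicates 1 and 2 lay within the CCR8- range. The means were 1613 ± 460 and 2280 ± 872 (SD, n = 4 each), with a log2 fold change of 0.45 (SE 0.31, 95% interval -0.23 to 1.13), an exact permutation p of 0.20 and a limma adjusted p of 0.838. CCR8+ was higher in 2 of the 4 same-numbered pairs.

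Ikzf2, the Helios gene, was present at low levels in all 4 CCR8- libraries. Its normalized counts there were 192, 213, 289 and 231, a narrow range. In CCR8+ cells they were 87.5, 81.4, 0 and 393, so that 3 libraries lay below all CCR8- libraries and replicate 4 lay above all of them. The zero in CCR8+ replicate 3 stood for 0 reads of 12621542, whereas 81 reads or more were present in each other library. In that library 36 genes were at 0 while having at least 100 normalized counts in each of the other 7. Loss of the transcript in the library and its absence from the cells were therefore not told apart. The means were 231 ± 41.8 and 141 ± 173 (SD, n = 4 each), and the log2 fold change was -2.48 (SE 1.58, 95% interval -5.95 to 0.99), with an exact permutation p of 0.143 and a limma adjusted p of 0.838. That size rested on the library at 0, without which the log2 fold change was -0.69. Without CCR8+ replicate 4 the populations did not overlap.

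Ikzf4, the Eos gene, was scarce, with at most 1 read in 2 libraries and 46 to 179 reads in the other 6. Eos is a partner of Foxp3 in gene repression. Its normalized counts were 0.985, 56.6, 81.6 and 77.2 in CCR8- and 0, 73.9, 204 and 40.0 in CCR8+ libraries. Replicate 1 of both populations had at most 1 read, so the lowest value of each population came from the same replicate number, and the remaining libraries overlapped. The means were 54.1 ± 37.0 and 79.5 ± 88.4 (SD, n = 4 each), and the log2 fold change of -0.06 had a 95% interval of -4.37 to 4.25 (limma adjusted p = 0.997, exact permutation p = 0.943). No direction can be given, since the sign turned with the scaling, the pseudocount and the library left out. Without CCR8+ replicate 1 the log2 fold change was 1.55, and without CCR8- replicate 1 it was -1.35.

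Ikzf5, the most distant family member by sequence, did not separate the populations. Its normalized counts were 138, 281, 350 and 184 in CCR8- and 198, 344, 284 and 321 in CCR8+ libraries. The ranges overlapped over most of their length. The means were 238 ± 95.4 and 287 ± 64.3 (SD, n = 4 each), with a log2 fold change of 0.33 (SE 0.51, 95% interval -0.80 to 1.46), an exact permutation p of 0.40 and a limma adjusted p of 0.903. The interval leaves room for a change of either sign.

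**Figure D2:**
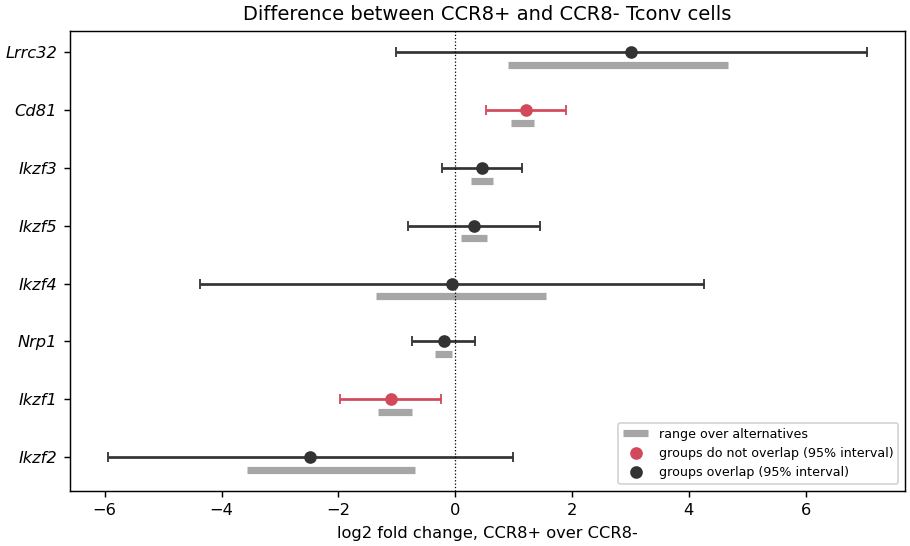
Log2 fold change of each gene, CCR8+ over CCR8- cells (linear axis), with its 95% limma interval (points and bars) and the range over the processing alternatives below it (thick gray lines). Red points mark Ikzf1 and Cd81, whose populations did not overlap, and the intervals of the 3 genes with libraries at 0, Ikzf2, Ikzf4 and Lrrc32, are the widest, reaching from -4.37 to 4.25 for Ikzf4.

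Of the surface genes, Cd81 showed the clearest separation. CD81 associates with integrins and with co-receptors and supports activation signals in T cells. Its normalized counts were 920, 586, 922 and 1065 in CCR8- and 1749, 1504, 3462 and 1712 in CCR8+ libraries. Every CCR8+ library was above every CCR8- library, with the lowest CCR8+ library exceeding the highest CCR8- library by a ratio of 1.41, and CCR8+ replicate 3 was well above the other 3. The means were 873 ± 203 and 2107 ± 910 (SD, n = 4 each), a log2 fold change of 1.22 (SE 0.31, 95% interval 0.53 to 1.90). The exact two-sided permutation p was 0.0286, the limma adjusted p 0.8286 and the DESeq2 adjusted p 0.0470, and by its limma p Cd81 ranked 23 of the 11032 genes. The call thus depended on the test, with an edgeR adjusted p of 0.999. Without CCR8+ replicate 3 the log2 fold change was 0.95. CCR8+ was higher in 4 of 4 same-numbered pairs, by 0.93, 1.36, 1.91 and 0.68 on the log2 scale.

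CCR8+ replicate 3 also held the highest Ccr8 level of all libraries, 42508 normalized counts. The library with the most macrophage transcripts, CCR8- replicate 4 (summed level 81157), had 1065 normalized counts of Cd81, the highest of the CCR8- libraries. CCR8+ replicate 3, with the lowest summed level of the CCR8+ libraries (3184), had 3462, the highest of the CCR8+ libraries. The summed level of melanoma markers in CCR8+ replicate 3 was 232. The part of macrophage and melanoma transcripts in the Cd81 values was not tested.

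Nrp1 was the most abundant of the 8 genes per kilobase in CCR8- cells and did not separate the populations. Its normalized counts were 2773, 2067, 2038 and 1672 in CCR8- and 1405, 1762, 2524 and 1828 in CCR8+ libraries. All 8 libraries fell within a range of less than 2-fold, and both populations held high and low values. The means were 2137 ± 460 and 1880 ± 468 (SD, n = 4 each), with a log2 fold change of -0.19 (SE 0.25, 95% interval -0.73 to 0.35), an exact permutation p of 0.429 and a limma adjusted p of 0.879. The highest Nrp1 level, in CCR8- replicate 1, was in the library with the lowest summed level of macrophage markers (33.5). That library also had the fewest detected genes (8569). The part of macrophage transcripts in the Nrp1 values was not tested.

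Lrrc32, the GARP gene, was scarce in both populations. Its normalized counts were 0, 78.6, 0 and 85.2 in CCR8- and 120, 73.9, 41.1 and 75.7 in CCR8+ libraries. All CCR8+ libraries and 2 of the 4 CCR8- libraries had reads, and among those with reads the populations overlapped. The means were 41.0 ± 47.4 and 77.7 ± 32.4 (SD, n = 4 each), from 182 and 322 reads in all. The log2 fold change of 3.01 (SE 1.83, 95% interval -1.02 to 7.04) came with 2 of the 4 CCR8- libraries at 0, with an exact permutation p of 0.314 and a limma adjusted p of 0.838, whereas edgeR on the recovered reads gave 0.91. Fitted with a block on the replicate number, edgeR gave 3.41 and DESeq2 3.95. Both libraries without a Lrrc32 read, CCR8- replicates 1 and 3, were those with the lowest summed level of the 9 macrophage markers (33.5 and 1446, against 3184 to 81157 in the other libraries). In CCR8- replicate 1, 242 genes were at 0 while having at least 100 normalized counts in each of the other 7. There were 0 such genes for CCR8- replicate 3. All 9 macrophage markers had a positive log2 fold change in limma (median 2.09), none without overlap, but 5 of them had a higher mean in CCR8- cells and 5 a negative DESeq2 log2 fold change. The lowest and the highest summed level were both in CCR8- libraries, replicates 1 and 4. The part of macrophage and platelet transcripts in the Lrrc32 values was not tested.

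**Figure D3:**
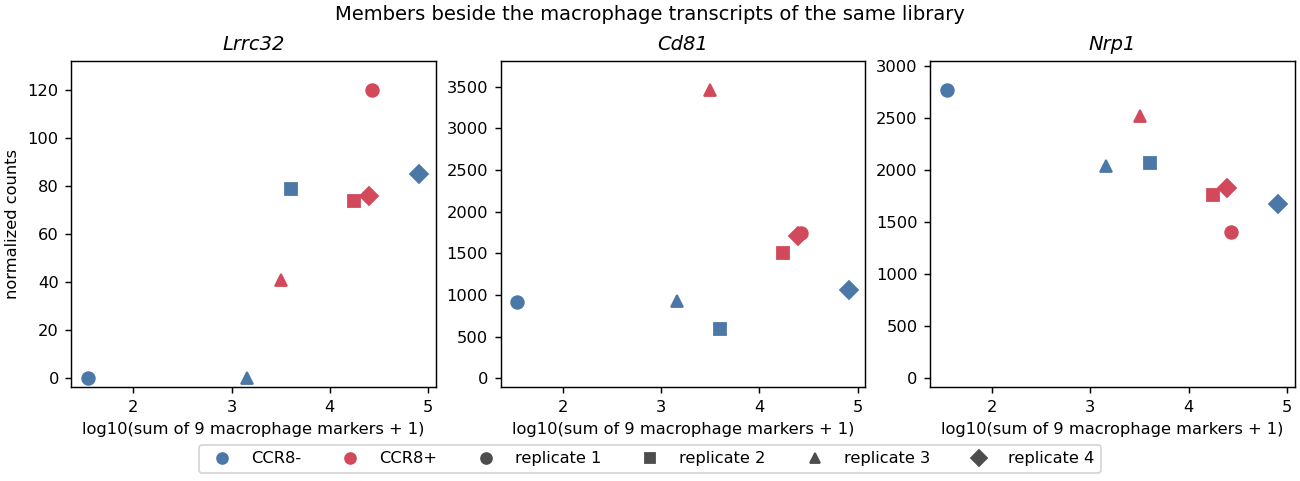
Normalized counts of Lrrc32, Cd81 and Nrp1 (linear axes) against log10 of the summed level of 9 macrophage markers plus 1 in the same library; blue is CCR8-, red is CCR8+, and symbol shapes are replicate numbers. Lrrc32 is at 0 in the libraries with the lowest macrophage sums, 33.5 and 1446, while the 4 red points of Cd81, at sums of 3184 to 26709, lie above the 4 blue ones, which include the lowest and the highest sum.

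To compare genes with one another, normalized counts were divided by exonic length in kilobases. In CCR8- cells the order of mean levels per kilobase was Nrp1 (594), Cd81 (519), Ikzf3 (441), Ikzf1 (294), Ikzf5 (48.1), Ikzf2 (24.1), Ikzf4 (9.28) and Lrrc32 (8.74). Neighbors in this order overlapped between libraries, with the exceptions of Ikzf1 above Ikzf5 and Ikzf2 above Ikzf4. Within single libraries, however, Ikzf3 was above Ikzf1 and Ikzf5 above Ikzf2 in 4 of 4. Nrp1 was above Cd81 in 3, Cd81 above Ikzf3 in 2 and Ikzf4 above Lrrc32 in 2. In CCR8+ cells Cd81 led (1253), followed by Ikzf3 (623), Nrp1 (523), Ikzf1 (126), Ikzf5 (57.9), Lrrc32 (16.6), Ikzf2 (14.7) and Ikzf4 (13.6). Here Cd81 and Ikzf3, Nrp1 and Ikzf1, Ikzf1 and Ikzf5, and Ikzf5 and Lrrc32 did not overlap, whereas the last 3 genes could not be ordered. In both populations the 4 genes Nrp1, Cd81, Ikzf3 and Ikzf1, here called the abundant set, thus stood above the other 4, the scarce set. The division was less marked in CCR8+ cells, where Ikzf1 (126) lay nearer to Ikzf5 (57.9) than to Nrp1 (523). Cd4 for comparison stood at 2713 and 2680 per kilobase.

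Set against the 10639 genes with a known exonic length, the abundant set lay above the median gene in both populations. Nrp1 per kilobase exceeded 83.5% of genes in CCR8- and 81.0% in CCR8+ cells, Cd81 81.6% and 90.5%, Ikzf3 79.3% and 83.2%, and Ikzf1 72.5% and 56.3%. The scarce set lay below the median gene in both populations. Ikzf5 exceeded 35.8% and 40.1% of genes, Ikzf2 22.2% and 15.3%, Ikzf4 9.93% and 14.5%, and Lrrc32 9.42% and 17.1%. Of the Treg lineage genes, Nrp1 and Cd81 were therefore well represented in the libraries of cells sorted as lacking the Foxp3 reporter, whereas the genes of Helios, Eos and GARP were present at low levels. The part of macrophage and melanoma transcripts in these levels was not tested. How these levels compare with those of Treg cells was not analyzed here.

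**Figure D4:**
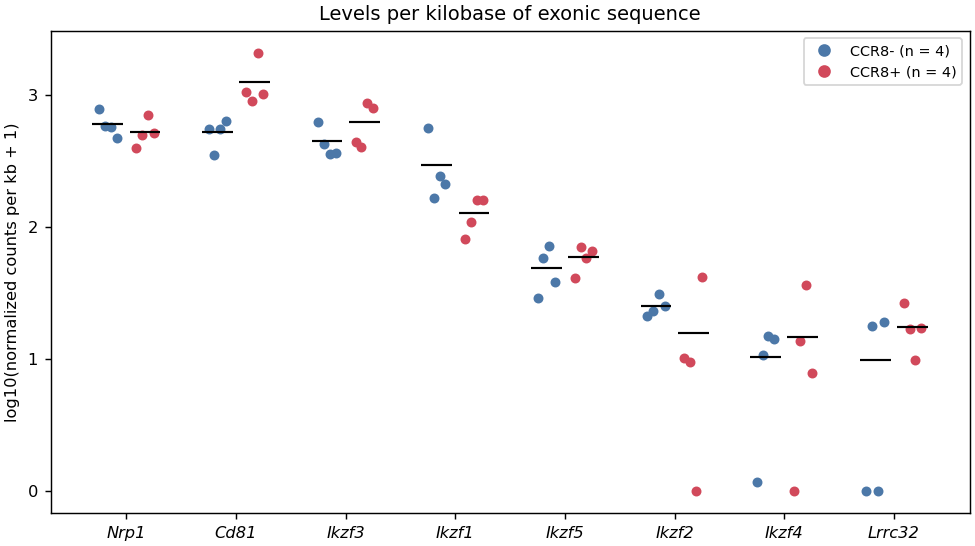
Log10 of normalized counts per kilobase of exonic sequence plus 1, with genes ordered by their mean in CCR8- cells; blue points are the 4 CCR8- and red points the 4 CCR8+ libraries, and black bars mark the mean of 4. Nrp1, Cd81, Ikzf3 and Ikzf1 stand above the other 4 genes in both populations. At 0 are 1 library each of Ikzf2 and Ikzf4 and 2 libraries of Lrrc32.

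Ikaros proteins repress and activate genes through the NuRD and Sin3 complexes. A list of 18 genes was examined beside them, made up of genes of these complexes, associated co-repressors and Crbn, which is neither. None was called by limma, the median log2 fold change was 0.01 beside 0.04 over all tested genes, and 4 of the 18 (22.2%) did not overlap between populations, beside 4.40% of all tested genes. The list was chosen with earlier results of these data known, so this share is a description only. Chd3, the Mi-2α remodeling subunit of NuRD, was lower in CCR8+ cells, at 317 to 789 against 848 to 2456 normalized counts (log2 fold change -1.25, SE 0.41). Sin3a, the scaffold of the Sin3 complex, was 28.7 to 163 in CCR8+ and 166 to 719 in CCR8- libraries. The other 2 were higher in CCR8+ cells, namely Rbbp7, a histone-binding subunit (6452 to 15704 against 3337 to 6175), and Hdac2, a histone deacetylase (1457 to 1778 against 1006 to 1286).

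Among 26 transcription factors that act beside Foxp3 or in T cell differentiation, none was called by limma, and 4 (15.4%) did not overlap, beside 4.40% of all tested genes. These factors, too, were chosen with earlier results of these data known, and the share is a description only. The median log2 fold change was 0.04, as over all tested genes. Batf, an AP-1 family factor of effector T cells, was 7560 to 15908 normalized counts in CCR8+ and 5560 to 7281 in CCR8- libraries. The 3 genes lower in CCR8+ cells were Satb1, a chromatin organizer of T cells (409 to 3098 against 3599 to 6477), Lef1, a factor of naive and memory T cells (520 to 1357 against 1493 to 2179), and Runx2 (615 to 1208 against 1310 to 1547). The log2 fold changes of Satb1 and Lef1 were -1.72 (SE 0.54) and -1.17 (SE 0.30).

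A list of 30 other genes known from Treg cells gave 5 genes (16.7%) whose populations did not overlap, beside 4.40% of all tested genes. It was chosen with earlier results of these data known. It holds Tnfrsf9, Il2ra and Il10, which the study reported as enriched in CCR8+ Tconv cells. Its share and its median are therefore descriptions and not independent of those results. The median log2 fold change was 0.38, beside 0.04 over all tested genes. Of the 5, 4 were higher in CCR8+ cells, including Ccr8, which the sort itself selected on. None was called by limma, and DESeq2 called 2 of them, beside 26 of 10744 genes (0.242%). Ctla4, an inhibitory receptor, was 7662 to 11692 in CCR8- and 15421 to 43338 in CCR8+ libraries (log2 fold change 1.34, SE 0.32, DESeq2 adjusted p = 0.00225). Tnfrsf9, the 4-1BB gene, was 2358 to 4987 and 7710 to 16052 (log2 fold change 1.57, SE 0.30, DESeq2 adjusted p = 0.000726). Penk, the proenkephalin gene, was 1161 to 6142 and 7637 to 61898. Itgae, the CD103 gene, was the only one of the list that was lower without overlap, at 251 to 1178 in CCR8- and 0 to 175 in CCR8+ libraries. In CCR8+ replicate 3, where Cd81 was highest, Ctla4, Tnfrsf9, Penk and Ccr8 were also at their highest and Itgae was at 0.

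Among the direct partners of the surface genes no gene was without overlap, beside 4.40% of all tested genes. At that share lists of 6, 8 and 20 tested genes can hold none, so nothing about the partners is read from it. The median log2 fold change over all tested genes was 0.04. Of 15 listed ligands and co-receptors of Nrp1, 6 were tested, with a median log2 fold change of -0.33. Sema4a, a semaphorin ligand, had means of 2203 ± 646 in CCR8- and 1553 ± 1031 in CCR8+ cells, and Plxna1, a plexin co-receptor, had 80.3 ± 47.3 and 174 ± 96.8 (SD, n = 4 each). Of 14 genes of latent TGF-β and GARP, 8 were tested, with a median of -0.08. Tgfb1, the ligand that GARP holds, stood at 425 ± 219 and 535 ± 133, and Nrros, a relative of GARP that holds the same ligand in myeloid cells, at 2209 ± 1597 and 1166 ± 428. Of 28 tetraspanins and their partners, 20 were tested, with a median of 0.09. Cd9, a tetraspanin that associates with CD81, stood at 825 ± 169 and 453 ± 254, and its log2 fold change of -1.21 (SE 0.62, limma adjusted p = 0.838) had the opposite sign to that of Cd81.

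Across the 8 libraries, the genes whose profiles were most like each member were named by Pearson's r of log2(normalized count + 1) among 8408 genes with a mean of at least 100. For Cd81 these were Jdp2 (0.98), Penk (0.97) and Znhit3 (0.96), and for Ikzf1 they were Mbtps2, Dock2 and Avl9 (each 0.96). The abundant genes Ikzf3 and Nrp1 were most like Nfkbib, Bmpr2 and Psmc1, and Nek7, Aftph and 4931406P16Rik. Ikzf5 was most like Gnpat, Anapc1 and Ppp2r1a. The profiles of Ikzf2 (Oas1c, Galm and Cdh23), Ikzf4 (Braf, Dhrs13 and Ppic) and Lrrc32 (Gatm, Ccl2 and Tgm2) include libraries at 0. These values are descriptions over 8 points that share the population, the depth and the number of detected genes of each library, and the highest of 8408 values is high by selection.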

How the data were processed

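The 8 libraries (4 CCR8+ and 4 CCR8- populations of Foxp3EGFP-negative CD4+ Tconv cells) were grouped by their labels. Per the methods and the submitters' processing notes, the authors used a SMARTer low-input kit, FastQC and Cutadapt, alignment with hisat2 to the NCBIM37 genome, and only reads that mapped to 1 place; HTSeq and DESeq2 are also named. Tool versions, and whether strand was used, are not given in the sources used here. Each deposited value is a normalized signal, a read count divided by 1 factor for its library, made with intergenic read normalization. The unit carries the name FPM, yet library totals ran from 11469410 to 14394101. All values (100%) lay within 0.05 of a whole multiple of 1 read, which allowed the reads to be recovered. Of the 11233 genes, 20 were at 0 in all libraries and 1 symbol was listed more than once.

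limma 3.58.1 (intensity trend, R 4.3.3) was run on log2(deposited value + 1) for 11032 genes whose mean was 10 or more, with Benjamini-Hochberg adjustment over all of them and a threshold of 0.05. Fold changes on this scale understate the changes of low genes whose values are all above 0, whereas single libraries at 0 can enlarge them, and both depend on the pseudocount. Single genes had exact two-sided permutation tests over 70 assignments (scipy 1.17.1), whose smallest p is 0.0286. Alternatives were edgeR 4.0.16 and DESeq2 1.42.0 on recovered reads, TMM, median-ratio and total scaling, pseudocounts of 0.1 and 10, no filter or a mean of 100 or more, a replicate block, and leaving out each library. The scripts were tested on simulated counts. Limits from depth describe counting error alone, as PCR copies were not collapsed to molecules. Lengths, positions and sequences came from GENCODE M21 (GRCm38), a later build than that of the alignment, and were matched by symbol. No coordinates were converted.

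The members and gene lists were chosen with earlier results of these data known. Named were the 8 genes, genes of a list without overlap, the 2 highest and 2 lowest log2 fold changes of a list at a mean of 100 or more (given in part), cell type markers, and for each of the 8 genes the 3 genes most like it.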

Additional observations from a re-analysis of the deposited data

Results flagged for a closer look

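The Cd81 level of CCR8+ replicate 3, 3462 normalized counts, stood apart from the other 3 CCR8+ libraries (1504 to 1749). The gap to its nearest neighbor, divided by the range of the 4, was 0.875, above Dixon's 95% critical value for 4 samples. It was the only one of 16 groups (8 genes in 2 populations) that stood apart in this way, and chance flags about 1 in 20 groups. Without that library the log2 fold change of Cd81 was 0.95, and the populations still did not overlap.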

How the results depend on the processing

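Under 20 alternatives the directions of Ikzf1, Ikzf2, Ikzf3, Ikzf5, Nrp1 and Cd81 did not turn, nor did that of Lrrc32 under its 19, but the sizes for Ikzf2 (-3.57 to -0.69) and Lrrc32 (0.91 to 4.66) moved widely. Ikzf4 turned positive with every library scaled to the same total (0.092), with a pseudocount of 10 (0.16), with edgeR (0.55) and with DESeq2 (0.55), and leaving out single libraries gave -1.35 to 1.55. The number of the 8 genes called was 0 in limma and edgeR and 1 (Cd81) in DESeq2, where 4 of the 8 had no adjusted p. DESeq2 called 26 of all tested genes and 2 in the lists. The limma adjusted p of Cd81 was 0.8286 and its range over the alternatives was 0.0264 to 0.999. Without CCR8+ replicate 1 the unadjusted limma p of Ikzf1 was no longer under 0.05. The genes without overlap were Ikzf1 and Cd81 in 3 other scalings and after leaving out each library, joined by Ikzf2 without CCR8+ replicate 4. The cause of the differences between tests was not tested.

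The replicate numbers were not taken to pair the libraries. Deviations from the population means correlated by 0.0682 to 0.217 for equal numbers and by -0.17 to 0.10 for different numbers, and 7 of 8 libraries correlated best with their own number. In a fit blocked on that number (replicate block), limma called 1 gene and none of the 8, and in edgeR with the block Ikzf1 was no longer at an unadjusted p under 0.05. DESeq2 with the block called 124 genes (1.12%), of which 10 were in the lists and 1 was a member (Cd81, adjusted p = 0.0264). In that fit Lrrc32 had an unadjusted p of 0.0377 (adjusted p = 0.488), beside 9.02% of all genes at an unadjusted p under 0.05. Low reads limit Ikzf4 (239 in CCR8- and 313 in CCR8+ libraries in all) and Lrrc32 (182 and 322).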
